A study of Mus musculus with 6 samples.

Results

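The 10 genes described here make up the outer layer of the TGF-β pathway in mouse lung: the ligand genes Tgfb1, Tgfb2 and Tgfb3, the receptor genes Tgfbr1, Tgfbr2 and Tgfbr3, the latent binder genes Ltbp1, Ltbp3 and Ltbp4, and Pmepa1, a transcriptional target that feeds back on the pathway. They were picked from the tables by symbol, with no threshold on any measured value. All 10 had a row in each of the 6 deposited count tables, out of 20491 gene symbols that the tables share. In the lungs of bleomycin-exposed mice, Pmepa1, Tgfb1, Tgfb2, Tgfbr2 and Ltbp3 were higher in pooled fibroblasts (FBs) than in the PBS library, after single and repetitive exposure. Ltbp4, Tgfbr3 and, by less, Tgfbr1 were lower in both, and Tgfb3 was clearly higher only after repetitive exposure. The make-up of the FBs differed between the libraries, and the Tgfb1 difference was smaller within lipofibroblast-like (LipoFB-like) barcodes. Among the cell groups of at least 20 barcodes in bleomycin lungs, Tgfb1 was highest in MyoFB-like barcodes and in macrophages. In alveolar organoids the contrast of fibrogenic with normal FBs was small in FBs. It ran the other way for Tgfb1, Tgfbr2 and Pmepa1 and, by less, for Tgfb2 and Tgfb3.

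TGF-β is secreted as a latent complex in which the mature ligand stays wrapped in its own propeptide. Latent TGF-β binding proteins, encoded by the Ltbp genes, tie that complex to fibrillin and fibronectin fibres in the matrix, from which integrins and proteases release it. Free ligand is bound by the type II receptor (Tgfbr2), which recruits and phosphorylates the type I receptor (Tgfbr1) and so activates Smad transcription factors, while betaglycan (Tgfbr3) is a co-receptor that presents ligand, Tgfb2 above all. In the lung the pathway is known for driving FBs toward contractile, matrix-producing myofibroblasts.

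Each of the 6 samples was 1 single-cell RNA library. Lung libraries came from male Pdgfra-GFP mice aged 10 to 14 weeks, which carry an EGFP reporter at the Pdgfra gene, and GFP+ cells were sorted from digested lungs of 3 mice pooled per library. In the single-exposure pair, mice received 50 µl PBS or bleomycin once by oropharyngeal aspiration and lungs were taken on day 14. The labels give this bleomycin dose as 2 U/kg in 1 field and 4 U/kg in another. In the repetitive pair, mice received PBS or bleomycin once a week for 3 weeks, with 1 U/kg at the first and second dose and 0.5 U/kg at the third, and lungs were taken 2 weeks after the last dose. In the organoid pair, tomato+ alveolar type 2 epithelial cells (AEC2) from SpcCreER × Rosa-td26 mice, in which tamoxifen-induced Cre in Sftpc-expressing cells switches on a tomato reporter, were grown for 2 weeks in Matrigel with GFP+ FBs taken on day 14 from mice given PBS (normal FBs) or 2 U/kg bleomycin (fibrogenic FBs).

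With 1 library per condition there was no replicate check, so no p-value is given and each difference is a difference between 2 libraries. The unit is summed unique molecular identifiers (UMIs) scaled to counts per 1000000 UMIs of a cell group, written CPM. Because 1 UMI stands for 1 transcript end, CPM needs no scaling by length when genes are set side by side. Intervals are 95% intervals that cover counting error only, and not the spread between mice or libraries. A log2 ratio was computed on CPM with a pseudocount of 1 CPM, and a gene was counted as past the fold when its mean CPM was at least 5 and its log2 ratio was at least 1 in size. The deposited tables of the 3 experiments were made separately, so levels are compared only within an experiment, except in the search for the genes most alike in level, which pools all libraries.

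The tables held 1015 to 10737 barcodes and 7201081 to 238618743 UMIs, and any pair of libraries shared 0 to 30 barcodes. Cell groups were set by marker genes, none of which is one of the 10 genes. FB-gated barcodes made up 86.6% to 91.3% of the lung barcodes kept, and all 7 FB markers, Pdgfra included, were detected in the FB group of every library. Pdgfra itself stood at 514 CPM in single PBS FBs and 293 CPM in single bleomycin FBs, and at 592 CPM and 377 CPM in the repetitive pair. In the organoids it stood at 76.8 CPM with normal FBs and 71.5 CPM with fibrogenic FBs. The 10 macrophage markers summed to 7.22 to 34.2 CPM in lung FBs, against 6670.4 to 13511 CPM in lung macrophages. Median depth of FBs was 10493 UMIs in the repetitive PBS library against 3674 in the repetitive bleomycin library, and 48342 in normal against 6217 in fibrogenic organoids. The part of this depth gap in the differences below was not tested beyond the alternatives given.

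In the Gencode vM21 annotation of GRCm38, the ligand genes lie at chr7:25687002-25705077 (Tgfb1, plus strand), chr1:186622792-186705989 (Tgfb2, minus strand) and chr12:86056745-86079041 (Tgfb3, minus strand). The receptor genes lie at chr4:47353222-47414931 (Tgfbr1, plus strand), chr9:116084293-116175360 (Tgfbr2, minus strand) and chr5:107106570-107289629 (Tgfbr3, minus strand). The latent binders lie at chr17:75005568-75392512 (Ltbp1, plus strand), chr19:5740904-5758532 (Ltbp3, plus strand) and chr7:27305136-27337692 (Ltbp4, minus strand), and Pmepa1 at chr2:173224458-173276533 (minus strand).

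RefSeq (GRCm38.p6) gave promoter entries for 7 of the 10 genes. The 250 bases before the start are shown for Tgfb1, Tgfb2 and Ltbp3. Tgfb1 was above Tgfb2 in macrophages and below it in pooled organoid epithelium, and Ltbp3 was the latent binder that was higher after bleomycin in both lung experiments. Capitals mark 3 motifs searched on both strands: CAGAC, a core of Smad binding, TGACTCA, bound by AP-1, and GGGCGG, bound by Sp1 factors. The sequences lie on the plus strand at chr7:25686752-25687001 for Tgfb1, on the minus strand at chr1:186705990-186706239 for Tgfb2 and on the plus strand at chr19:5740650-5740899 for Ltbp3, and each is written 5′ to 3′ on the strand of its gene.
Tgfb1: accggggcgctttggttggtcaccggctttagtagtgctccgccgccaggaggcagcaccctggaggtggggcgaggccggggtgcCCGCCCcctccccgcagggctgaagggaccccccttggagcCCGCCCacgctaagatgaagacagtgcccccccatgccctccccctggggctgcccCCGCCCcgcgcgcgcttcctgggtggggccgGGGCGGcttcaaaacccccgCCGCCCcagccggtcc
Tgfb2: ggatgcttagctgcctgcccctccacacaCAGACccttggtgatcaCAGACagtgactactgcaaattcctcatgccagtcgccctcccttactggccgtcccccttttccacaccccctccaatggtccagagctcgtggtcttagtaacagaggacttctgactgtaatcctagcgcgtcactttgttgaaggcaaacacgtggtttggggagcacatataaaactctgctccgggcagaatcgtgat
Ltbp3: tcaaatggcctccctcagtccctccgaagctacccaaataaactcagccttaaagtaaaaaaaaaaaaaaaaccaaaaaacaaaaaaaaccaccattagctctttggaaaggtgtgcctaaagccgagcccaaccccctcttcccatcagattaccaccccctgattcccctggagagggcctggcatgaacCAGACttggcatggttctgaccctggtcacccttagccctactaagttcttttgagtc
The Tgfb1 window held 5 GGGCGG matches and no CAGAC, the Tgfb2 window held 2 CAGAC and no GGGCGG, and the Ltbp3 window held 1 CAGAC. None of the 3 held TGACTCA. Of 32851 RefSeq windows of this length, 42.19% held CAGAC, 32.74% held GGGCGG and 4.46% held TGACTCA, so a single match is common and is given as a description only.

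The first comparison asks how the 10 genes differ between FBs of PBS and bleomycin-injured lungs 14 days after a single exposure (927 and 841 FB barcodes). Among ligands, Tgfb1 stood at 43.3 CPM (95% interval 38.3 to 48.8) in PBS FBs and at 106 CPM (99.7 to 112) in bleomycin FBs, a log2 ratio of 1.27 (1.08 to 1.46). Tgfb2 stood at 17.8 and 31.4 CPM, a log2 ratio of 0.79 (0.49 to 1.10). Tgfb3 was the most abundant ligand transcript in both libraries, at 106 and 117 CPM, and its log2 ratio was 0.14 (0.01 to 0.28). In bleomycin FBs the interval of Tgfb1 overlapped that of Tgfb3 (110.4 to 124).

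Among receptors, the type II receptor Tgfbr2 was by far the most abundant, at 262 CPM in PBS and 459 CPM in bleomycin FBs, a log2 ratio of 0.80 (0.72 to 0.89). The type I receptor Tgfbr1 stood at 44.1 and 37.5 CPM, a log2 ratio of -0.23 (-0.45 to -0.01). The co-receptor Tgfbr3 stood at 89.7 and 51.7 CPM, a log2 ratio of -0.78 (-0.95 to -0.61). The 3 receptor genes thus differed in direction, with only Tgfbr2 higher in bleomycin FBs.

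The latent binders also differed in direction. Ltbp4, which has a role in elastic fibre assembly, was the most abundant of the 10 genes in PBS FBs at 672 CPM and stood at 288 CPM in bleomycin FBs, a log2 ratio of -1.22 (-1.29 to -1.15). Ltbp3 stood at 71.8 and 146 CPM, a log2 ratio of 1.01 (0.86 to 1.16), and Ltbp1 at 124 and 157 CPM, a log2 ratio of 0.33 (0.21 to 0.46). Pmepa1, which encodes a membrane protein that binds receptor-activated Smads and curbs their phosphorylation, stood at 341 and 667 CPM, a log2 ratio of 0.97 (0.90 to 1.04). In bleomycin FBs Pmepa1 took the place of Ltbp4 as the most abundant of the 10.

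All 10 genes passed the filter on low values in this pair. Tgfb1 and Ltbp3 were past the fold upward, against 6.4% of the 9755 genes compared, and Ltbp4 was past it downward, against 3.65%. The median log2 ratio of the 10 genes was 0.56, beside 0.06 for all genes compared. Ltbp3 and Pmepa1 lay at the threshold: the log2 ratio of Ltbp3 ranged from 0.93 to 1.16 and that of Pmepa1 from 0.89 to 1.00 over the processing alternatives. That of Tgfb1 ranged more widely, from 0.67 to 1.43, and it was below the fold when the MyoFB, smooth muscle, cycling and mesothelial (MEFB) subsets of FBs were left out.

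**Figure D1:**
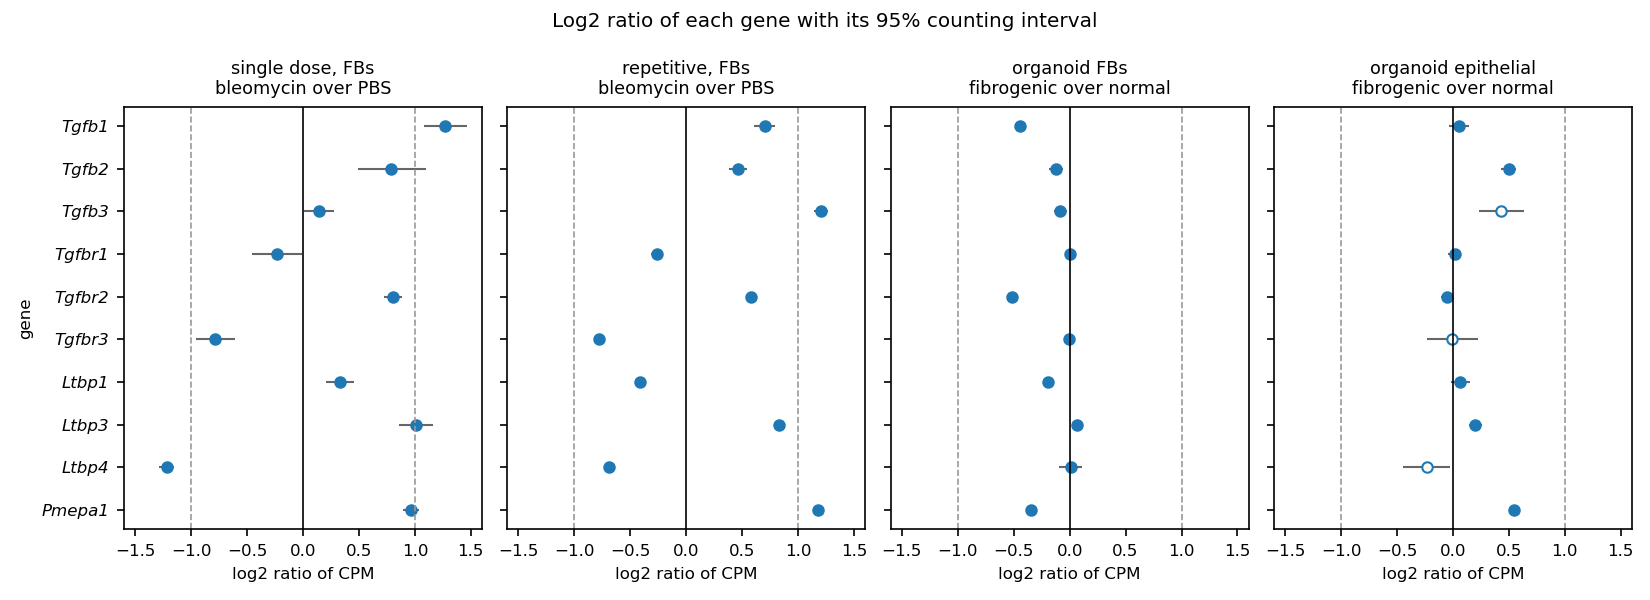
Log2 ratio of CPM (x axis) for each of the 10 genes (y axis) in 4 comparisons, with bars for 95% counting intervals, open circles for genes under a mean of 5 CPM and dashed lines at a log2 ratio of 1 in either direction. In both lung FB panels Ltbp4, Tgfbr3 and Tgfbr1 lie left of 0 and Tgfb1, Tgfb2, Tgfb3, Tgfbr2, Ltbp3 and Pmepa1 right of 0. Ltbp1 changes side, and no gene of the organoid panels reaches a dashed line.

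The second comparison puts the same question to FBs after 3 weekly exposures (5458 PBS and 7802 bleomycin FB barcodes). Pmepa1 stood at 444 CPM in PBS and 1003 CPM in bleomycin FBs, a log2 ratio of 1.17 (1.15 to 1.19). Tgfb3 stood at 45.6 and 106 CPM, a log2 ratio of 1.20 (1.14 to 1.27). These 2 genes were past the fold upward, against 5.53% of 10436 genes, and none was past it downward, against 2.18%. The median log2 ratio of the 10 genes was 0.52, beside 0.09 for all genes compared.

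Of the other ligands, Tgfb1 stood at 23.1 and 38.2 CPM (log2 ratio 0.70, 0.61 to 0.80) and Tgfb2 at 34.9 and 48.6 CPM (0.47, 0.39 to 0.55). All 3 ligand genes thus had log2 ratios above 0 in pooled bleomycin FBs of both lung experiments. Tgfb1 was first by ratio after the single exposure and Tgfb3 after repetitive exposure. For Tgfb3 after the single exposure the ratio was 0.14, near the median of 0.06 for all genes compared. Its ratios within the FB subsets compared below were under 0 there. Tgfbr2 stood at 397 and 594 CPM (log2 ratio 0.58, 0.55 to 0.60). Tgfbr1 stood at 106 and 88.8 CPM, a log2 ratio of -0.26 (-0.31 to -0.21). Tgfbr3 stood at 364 and 211 CPM, and its log2 ratio of -0.78 (-0.82 to -0.75) had the same value to 2 decimals as after the single exposure.

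Among latent binders, Ltbp4 stood at 915 and 565 CPM, a log2 ratio of -0.69 (-0.71 to -0.67), and Ltbp3 at 98.6 and 176 CPM, a log2 ratio of 0.83 (0.78 to 0.87). Ltbp1, which stood at 499 and 373 CPM, had a log2 ratio of -0.42 (-0.44 to -0.39) where the single-exposure pair had 0.33. Ltbp1 was the only 1 of the 10 genes whose log2 ratio differed in sign between the lung experiments, and this difference was not tested. The sign of each of the 10 log2 ratios held in both lung experiments under the 6 alternatives that can turn a sign.

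The FB group is a mixture, and its make-up differed between the libraries. LipoFB-like barcodes, gated on lipofibroblast genes such as Plin2 and Tcf21, numbered 644 of 927 in single PBS and 188 of 841 in single bleomycin, and 3966 of 5458 and 1547 of 7802 in the repetitive pair. MyoFB-like barcodes, gated on Spp1, Tagln, Cthrc1, Postn and Acta2, numbered 0 and 73 in the single pair and 2 and 137 in the repetitive pair. MatrixFB-like barcodes, gated on Col14a1, Ly6a, Pi16 and others, numbered 110 and 158, and 788 and 2514. FBs above the gate for injury genes such as Sfrp1, Lcn2 and Saa3 numbered 3 and 212, and 8 and 737. These subsets are ranges of a score and not discrete types: 18 of the 73 and 48 of the 137 MyoFB-like barcodes in the bleomycin libraries lay near the cut. Each of these gates needs at least 3 detected markers, so shallow barcodes can fall outside every gate. FBs outside every gate numbered 686 in repetitive PBS and 2790 in repetitive bleomycin, with median depths of 10831 and 2478 UMIs. Of the 2790, 882 lay near a cut. The part of depth in these numbers was not tested.

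Among FBs, Tgfb1 was high in the MyoFB-like gate. After single bleomycin it stood at 303 CPM in MyoFB-like and 274 CPM in the 14 smooth muscle-like barcodes, against 111 CPM in FBs outside every subset gate, 75 CPM in injury-gene FBs, 49.1 CPM in LipoFB-like and 20.1 CPM in MatrixFB-like barcodes. MyoFB-like over LipoFB-like barcodes gave a log2 ratio of 2.60 (2.29 to 2.92). After repetitive bleomycin Tgfb1 stood at 184 CPM in MyoFB-like, 115 CPM in the 24 cycling and 103 CPM in the 38 smooth muscle-like barcodes. It stood at 43.2 CPM in FBs outside every gate, 42.1 CPM in injury-gene FBs, 28.8 CPM in LipoFB-like and 18.0 CPM in MatrixFB-like barcodes. The MyoFB-like over LipoFB-like log2 ratio there was 2.63 (2.43 to 2.84). In both bleomycin libraries MatrixFB-like barcodes held the least Tgfb1 of the FB subsets with 20 barcodes or more.

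MyoFB-like barcodes held 35.9% of the FB Tgfb1 UMIs of the single bleomycin library and 12.6% of its FB UMIs, and smooth muscle-like barcodes held 11.1% and 4.31%. Without the MyoFB, smooth muscle, cycling and MEFB gates, the single-exposure log2 ratio of Tgfb1 was 0.67 in place of 1.27, below the fold. In repetitive bleomycin FBs the MyoFB-like share of Tgfb1 UMIs was 14.0%, and the log2 ratio without those gates was 0.49 in place of 0.70. Within LipoFB-like barcodes alone, the bleomycin over PBS log2 ratio of Tgfb1 was 0.32 (-0.04 to 0.67) after single and 0.34 (0.18 to 0.49) after repetitive exposure. In FBs outside every gate it was 0.72 (0.35 to 1.10) and 0.34 (0.14 to 0.54). In MatrixFB-like barcodes it was -0.53 (-1.38 to 0.35) and 0.25 (-0.06 to 0.56), with both intervals including 0.

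Tgfb2 was high in smooth muscle-like barcodes, in MyoFB-like barcodes after repetitive bleomycin and in the few MEFB-gated ones. It stood at 138 CPM in MyoFB-like and 136 CPM in smooth muscle-like barcodes of the repetitive bleomycin library, levels whose intervals overlap, against 58.5 CPM in MatrixFB-like and 35.8 CPM in LipoFB-like barcodes. The 15 MEFB-gated barcodes there stood at 108 CPM, and the 11 of the single bleomycin library at 56.6 CPM. In the single bleomycin library the order differed, with 118 CPM in smooth muscle-like, 47.3 CPM in MyoFB-like, 41.8 CPM in MatrixFB-like and 19.0 CPM in LipoFB-like barcodes. The MyoFB-like and MatrixFB-like levels there rest on 62 and 52 UMIs, and their intervals overlap. In both PBS libraries Tgfb2 was higher in MatrixFB-like barcodes (41.9 and 61.1 CPM) than in LipoFB-like barcodes (13.4 and 27.9 CPM).

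Tgfb3 had its own pattern. In PBS FBs it was higher in MatrixFB-like than in LipoFB-like barcodes, at 233 against 66.3 CPM in the single and 80.7 against 33.3 CPM in the repetitive experiment. In MatrixFB-like barcodes the 2 exposures gave opposite signs. Tgfb3 stood at 233 CPM in PBS and 116 CPM in single bleomycin, a log2 ratio of -0.997 (-1.33 to -0.67), just short of the fold. In the repetitive pair it stood at 80.7 CPM in PBS and 107 CPM in bleomycin, a log2 ratio of 0.40 (0.26 to 0.54). In LipoFB-like barcodes the log2 ratio of Tgfb3 was -0.16 (-0.47 to 0.14) and 0.89 (0.78 to 1.01). In FBs outside every gate it was -0.10 (-0.35 to 0.16) and 0.90. FBs outside every gate held the most Tgfb3 of the FB groups in the repetitive bleomycin library, at 147 CPM, followed by MyoFB-like at 108 CPM and MatrixFB-like at 107 CPM, whose intervals overlap. FBs outside every gate are a remainder and not a type, with a median of 2478 UMIs there against 9309 in LipoFB-like barcodes.

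**Figure D2:**
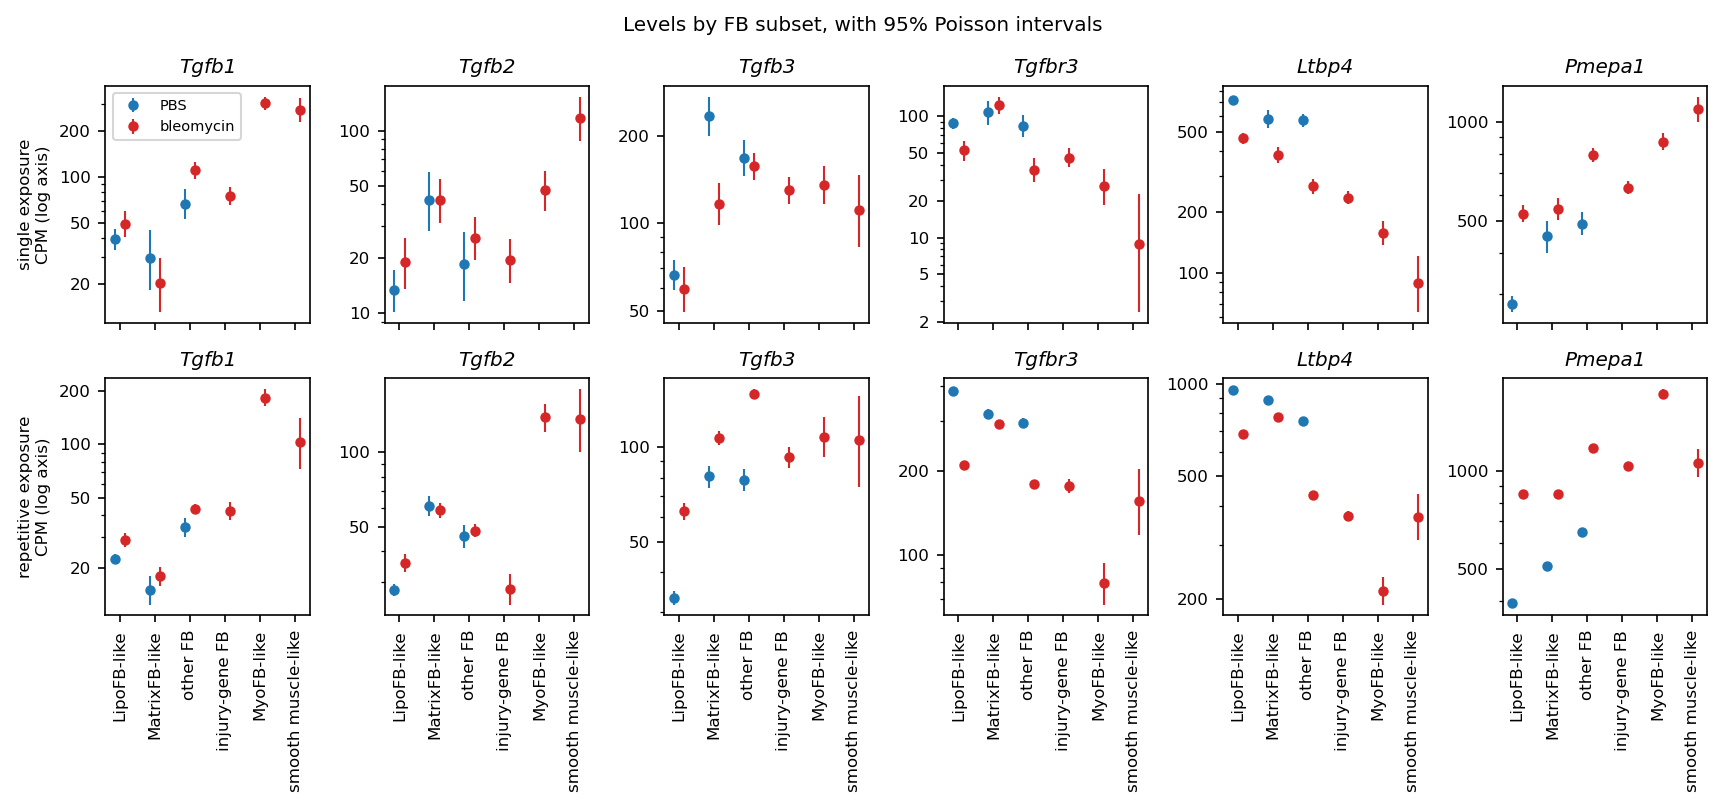
CPM on a log axis (y axis) of 6 of the genes by FB subset (x axis) in the single (top) and repetitive (bottom) experiments, with blue points for PBS, red points for bleomycin and bars for 95% Poisson intervals, for subsets of at least 10 barcodes. Tgfb1 peaks in MyoFB-like barcodes at 303 and 184 CPM, while Ltbp4 is lower in MyoFB-like than in LipoFB-like barcodes of both bleomycin libraries.

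Ltbp4 and Tgfbr3, both lower in bleomycin FBs, were lowest in MyoFB-like barcodes among the subsets of at least 20 barcodes. Ltbp4 stood at 465 CPM in LipoFB-like, 385 CPM in MatrixFB-like, 236 CPM in injury-gene and 158 CPM in MyoFB-like barcodes after single bleomycin. After repetitive bleomycin it stood at 686, 776, 372 and 213 CPM in the same subsets. MyoFB-like over LipoFB-like barcodes gave log2 ratios of -1.55 (-1.77 to -1.34) and -1.69 (-1.84 to -1.54). Tgfbr3 stood at 26.7 CPM in MyoFB-like against 52.4 CPM in LipoFB-like and 124 CPM in MatrixFB-like barcodes after single bleomycin, and at 79.4, 209 and 294 CPM after repetitive bleomycin.

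Ltbp4 was also lower within the same gate. In LipoFB-like barcodes its bleomycin over PBS log2 ratio was -0.63 (-0.73 to -0.52) after single and -0.47 (-0.50 to -0.44) after repetitive exposure, and in MatrixFB-like barcodes -0.59 (-0.78 to -0.39) and -0.19 (-0.23 to -0.15). Tgfbr3 was lower within LipoFB-like barcodes, at -0.73 (-1.04 to -0.43) and -0.87 (-0.93 to -0.82), while in MatrixFB-like barcodes its log2 ratios were 0.20 (-0.20 to 0.61) and -0.12 (-0.19 to -0.05). The Tgfbr3 intervals of these 2 subsets did not overlap in either experiment.

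Tgfbr2, Ltbp3 and Pmepa1 were higher in LipoFB-like and MatrixFB-like barcodes and in FBs outside every gate, in both experiments. In LipoFB-like barcodes the log2 ratio of Tgfbr2 was 0.86 (0.73 to 0.98) after single and 0.79 (0.75 to 0.82) after repetitive exposure. In MatrixFB-like barcodes it was 1.05 (0.81 to 1.30) and 0.34 (0.28 to 0.41). Ltbp3 had log2 ratios of 0.64 to 0.97 in these 2 subsets, and its level differed little between them: in the repetitive bleomycin library, across LipoFB-like, MatrixFB-like, injury-gene and MyoFB-like barcodes, Ltbp3 ran from 164 CPM in LipoFB-like to 185 CPM in MyoFB-like barcodes.

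Pmepa1 was highest in MyoFB-like barcodes of the repetitive bleomycin library, at 1717 CPM against 847 CPM in LipoFB-like and 850 CPM in MatrixFB-like barcodes, a MyoFB-like over LipoFB-like log2 ratio of 1.02 (0.96 to 1.08). After single bleomycin it stood at 869 CPM in MyoFB-like, 1088 CPM in smooth muscle-like and 526 CPM in LipoFB-like barcodes. Its bleomycin over PBS log2 ratio in LipoFB-like barcodes was 0.91 (0.79 to 1.03) and 1.10 (1.07 to 1.13), and in MatrixFB-like barcodes 0.27 (0.08 to 0.47) and 0.73 (0.68 to 0.79). Past the fold in LipoFB-like barcodes were thus 0 of the 10 genes after single exposure, against 4.82% of genes higher and 3.1% lower, and Pmepa1 alone after repetitive exposure, against 4.24% higher and 1.91% lower. In MatrixFB-like barcodes Tgfbr2 alone was past it after single exposure, against 6.85% higher and 5.84% lower, and none after repetitive exposure, against 1.94% and 1.59%. Tgfb3 lay just short of it in MatrixFB-like barcodes after single exposure, at -0.997. In FBs outside every gate Tgfbr3 (-1.18) and Ltbp4 (-1.09) were past it downward after single exposure, against 5.03% lower and 7.63% higher, and none after repetitive exposure, against 2.5% and 4.18%.

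Barcodes of other lineages in the GFP+ sort were few, and they are the cells that passed this sort rather than a sample of the lung. In the repetitive pair, macrophages and monocytes numbered 44 in PBS and 117 in bleomycin. Tgfb1 stood in them at 226 CPM (184 to 276) and 168 CPM (145 to 193), against 23.1 and 38.2 CPM in FBs of the same libraries. Between these libraries its log2 ratio was -0.43 (-0.79 to -0.06), where all genes compared in macrophages had a median of -0.18. In the bleomycin library the macrophage level of Tgfb1 and the MyoFB-like level of 184 CPM (165 to 206) had overlapping intervals.

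Macrophages also held the most Tgfbr1 of the groups of at least 20 barcodes in the repetitive libraries. Tgfbr1 stood at 240 CPM in PBS and 329 CPM in bleomycin macrophages, a log2 ratio of 0.45 (0.14 to 0.78), against 106 and 88.8 CPM in FBs. Tgfbr2 stood at 191 and 218 CPM, lower than in FBs. Tgfb2, Tgfb3, Tgfbr3 and Ltbp1 stood at 0 to 15.7 CPM in macrophages of both libraries. Ltbp3 had 1 UMI in PBS and 30 UMIs in bleomycin macrophages, and Ltbp1 0 and 12 UMIs, where the floor of 3 UMIs is 7.0 CPM in PBS. These counts stand beside a higher level of 5 FB genes read by no gate (Col6a1, Col6a2, Col6a3, Fbln1 and Loxl1) in bleomycin macrophages, 4.04% of their FB level against 1.39% in PBS. That percent of the FB level is 15.1 CPM for Ltbp1, 7.10 CPM for Ltbp3 and 1.54 CPM for Tgfb1, beside 10.5, 26.2 and 168 CPM measured in bleomycin macrophages. Of the 9 genes that passed the filter in macrophages, Ltbp1 and Ltbp3 were past the fold upward, against 8.95% of genes higher and 12.0% lower, but the Ltbp1 ratio rests on 0 UMIs and so on the pseudocount, and the Ltbp3 log2 ratio of 3.03 had an interval of 0.85 to 4.73.

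T cells (96 and 58 barcodes) held Tgfb1 at 56.7 CPM in PBS and 91.1 CPM in bleomycin, with a log2 ratio of 0.68 (-0.14 to 1.49) whose interval includes 0. Tgfbr2 stood in them at 141 and 192 CPM and Tgfbr3 at 31.7 and 31.4 CPM. Tgfb2 had 0 UMIs in PBS, where the floor of 3 UMIs is 6.80 CPM, and 1 UMI in bleomycin. Endothelial barcodes (55 and 28) were the only non-FB group of at least 20 barcodes with Tgfbr3 and Ltbp4 above 100 CPM in both repetitive libraries, at 186 and 177 CPM for Tgfbr3 and 194 and 133 CPM for Ltbp4. The 5 FB genes read by no gate stood in them at 4.73% and 7.88% of their FB level. That percent of the FB level is 17.2 and 16.6 CPM for Tgfbr3 and 43.2 and 44.5 CPM for Ltbp4. In the single pair macrophages numbered 8 and 20 and T cells 18 and 18, too few for a ratio. Tgfb1 there stood at 328 CPM in bleomycin macrophages and at 161 CPM in PBS and 258 CPM in bleomycin T cells, each above the FB level of its library.

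**Figure D3:**
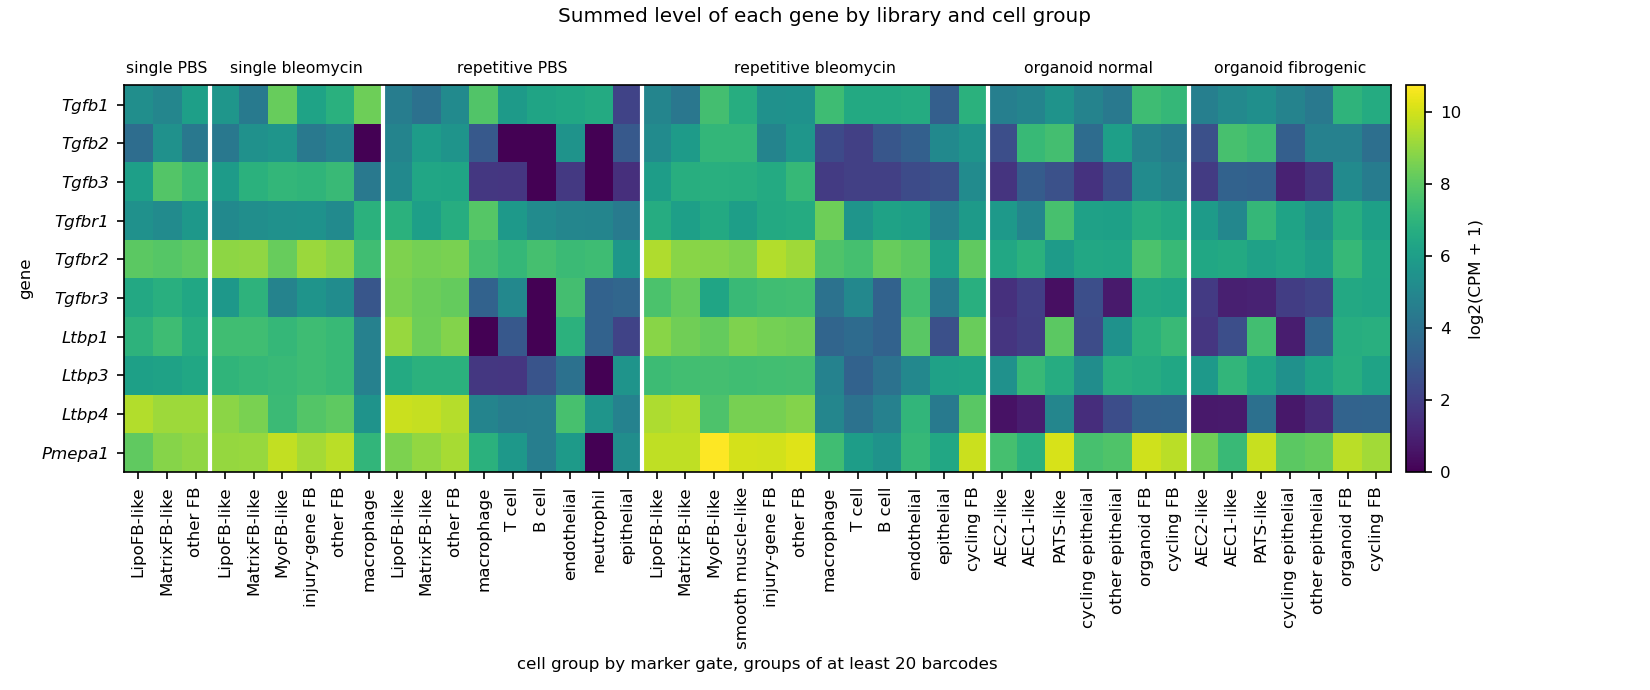
Level of each of the 10 genes (y axis) as log2(CPM + 1), by colour, in each cell group of at least 20 barcodes (x axis) of the 6 libraries, separated by white lines. Tgfb1 and Tgfbr1 are bright in macrophages, Tgfb3, Tgfbr3, Ltbp1 and Ltbp4 are darker in macrophages and lymphocytes than in FBs, and Ltbp4 is darker in organoid FBs than the other 9 genes. Colours are to be compared within an experiment.

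The organoid pair asks whether the FBs' origin, normal or fibrogenic, went with other levels of these genes after 2 weeks of co-culture. In organoid FBs (2185 normal, 4501 fibrogenic) none of the 10 genes was past the fold, against 0.334% of 9886 genes higher and 0.84% lower. Tgfbr2 stood at 199 CPM in normal and 138 CPM in fibrogenic FBs, a log2 ratio of -0.52 (-0.54 to -0.49). Tgfb1 stood at 165 and 121 CPM, a log2 ratio of -0.44 (-0.47 to -0.41). Pmepa1 stood at 971 and 766 CPM, a log2 ratio of -0.34 (-0.35 to -0.33). Each of these 3 was thus lower with fibrogenic FBs, and the other 7 genes had log2 ratios between -0.20 and 0.07. When barcodes were weighted equally, the Pmepa1 log2 ratio was -0.89, a shift of more than 0.5 that stands beside the depth gap between these libraries.

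The organoid FBs also differed from lung FBs in the order of their levels. Within the organoid libraries Ltbp4 was the least abundant of the 10 genes in FBs, at 9.75 and 9.82 CPM, while within each lung library it was among the 3 most abundant in FBs. Tgfb1 was the most abundant ligand in organoid FBs, above Tgfb3 at 34.5 and 32.5 CPM. Pmepa1 was the most abundant of the 10 in FBs of both organoid libraries.

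In organoid epithelial barcodes (1961 with normal and 1894 with fibrogenic FBs), 7 of the 10 genes passed the filter and none was past the fold, against 0.152% of 9881 genes in each direction. Pmepa1 stood at 274 CPM with normal and 399 CPM with fibrogenic FBs, a log2 ratio of 0.54 (0.52 to 0.57), which was 0.29 when barcodes were weighted equally. Tgfb2 stood at 40.0 and 56.8 CPM, a log2 ratio of 0.50 (0.43 to 0.56). Tgfb1, Tgfbr1, Tgfbr2 and Ltbp1 had log2 ratios between -0.06 and 0.07, and Ltbp3 had 0.20 (0.14 to 0.26). Tgfb3, Tgfbr3 and Ltbp4, the genes that did not pass, stood under 5 CPM in both libraries when all epithelial barcodes were pooled.

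Of the 3 alveolar states gated, the Pmepa1 difference was largest in AEC2-like barcodes, gated on surfactant genes such as Sftpc (1235 and 1014 barcodes). There Pmepa1 stood at 190.3 and 339 CPM, a log2 ratio of 0.83 (0.79 to 0.87). In AEC1-like barcodes, gated on Hopx, Ager and others, it stood at 120.3 and 154 CPM, a log2 ratio of 0.36 (0.24 to 0.48). In barcodes above the gate for the pre-alveolar type 1 transitional state (PATS-like, 214 and 360 barcodes, gated on Cldn4, Krt19, Sfn, Krt8 and Krt7) Pmepa1 was far higher, at 1086 and 929.7 CPM, and the log2 ratio was -0.22 (-0.27 to -0.18). Barcodes past the PATS cut and also the AEC1 or AEC2 cut were counted as AEC1-like or AEC2-like, so these gates can hold transitional cells. The 7 epithelial markers, Krt8 and Krt7 among them, summed to 5948 CPM with normal and 8085 CPM with fibrogenic FBs in AEC1-like barcodes. The part of transitional cells in the AEC1-like and AEC2-like ratios here and below was not tested. Median depth of PATS-like barcodes was 38609.5 UMIs with normal and 17000 with fibrogenic FBs, against 41756 and 38229.5 in AEC2-like barcodes. No processing alternative was run on the alveolar states, and the part of depth in their ratios here and below was not tested.

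Tgfb2 was the most abundant ligand transcript in pooled epithelial barcodes and was split by cell state. In AEC2-like barcodes Tgfb1 was above it, at 23.7 and 23.8 CPM. Tgfb2 stood at 4.90 CPM in AEC2-like, 151 CPM in AEC1-like and 187 CPM in PATS-like barcodes with normal FBs, and at 5.19, 193 and 164 CPM with fibrogenic FBs. Within AEC1-like barcodes its log2 ratio of fibrogenic over normal was 0.35 (0.24 to 0.46), within PATS-like barcodes -0.19 (-0.29 to -0.08) and within AEC2-like barcodes 0.07 (-0.16 to 0.30). AEC1-like and PATS-like barcodes numbered 233 and 214 of 1961 with normal FBs and 282 and 360 of 1894 with fibrogenic FBs, and the part of this make-up in the pooled Tgfb2 ratio was not tested beyond these values. Tgfb1 in contrast stayed between 23.7 and 44.5 CPM in all 3 states.

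PATS-like barcodes stood apart for 3 more genes. Ltbp1 stood in them at 262 and 180 CPM, against 2.12 and 2.30 CPM in AEC2-like and 2.88 and 4.95 CPM in AEC1-like barcodes. Tgfbr1 stood at 196 and 142 CPM in PATS-like, 55.3 and 59.4 CPM in AEC2-like and 28.8 and 30.5 CPM in AEC1-like barcodes. Ltbp4 stood at 29.1 and 14.7 CPM in PATS-like barcodes, above the 9.75 and 9.82 CPM of organoid FBs, and under 1 CPM in AEC2-like and AEC1-like barcodes of both libraries. Ltbp3 was highest in AEC1-like barcodes, at 149.5 and 135 CPM, above FBs of the same libraries at 98.0 and 103 CPM. The Ltbp1 level of PATS-like barcodes also exceeded that of organoid FBs (119 and 103 CPM). In all epithelial barcodes pooled, 5 FB genes read by no gate stood at 41.2 and 27.0 CPM against 654 and 687 CPM in organoid FBs. These pooled values are not for PATS-like barcodes alone, and the part of FB transcripts in their Ltbp1 level was not tested. Of the AEC1-like barcodes, 74 of 233 and 93 of 282 lay near the AEC1, AEC2 or PATS cut.

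**Figure D4:**
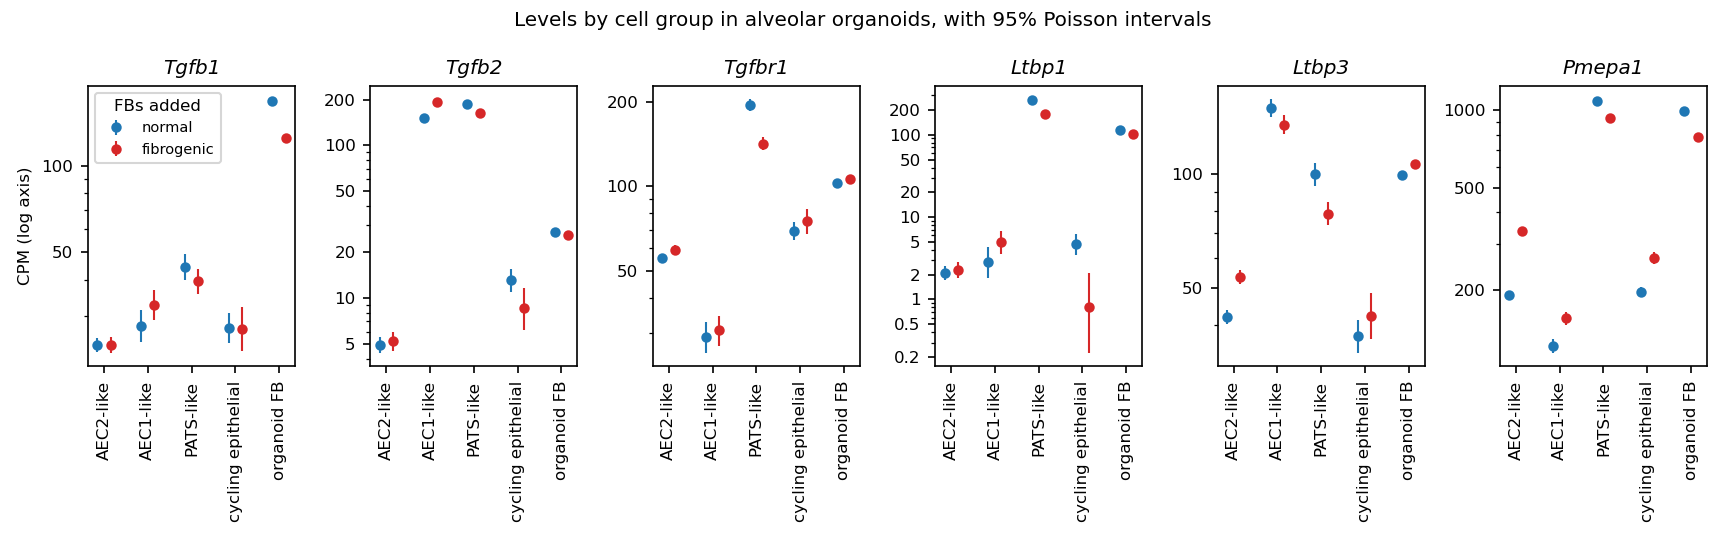
CPM on a log axis (y axis) of 6 of the genes by organoid cell group (x axis), with blue points for cultures with normal FBs, red points for cultures with fibrogenic FBs and bars for 95% Poisson intervals. Tgfb2 is near 5 CPM in AEC2-like barcodes and above 150 CPM in AEC1-like and PATS-like barcodes, and Pmepa1 is higher with fibrogenic FBs in AEC2-like barcodes, by a log2 ratio of 0.83.

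The other genes of the pathway were taken from 4 lists. Of 14 genes for storage and activation of latent TGF-β, 10 passed the filter in FBs of each lung experiment and 5 were past the fold upward in each, with none downward. Over all genes compared, 6.4% were past it upward and 3.65% downward after single, and 5.53% and 2.18% after repetitive exposure. The median log2 ratio of those that passed was 1.01 after single and 0.82 after repetitive exposure. The highest was Ltbp2, a member of the same protein family that binds fibrillin and does not bind latent TGF-β, at 11.0 and 429 CPM (log2 ratio 5.16, 4.84 to 5.49) and at 10.5 and 504 CPM (5.46, 5.36 to 5.57). The lowest were genes under the filter, Nrros after single exposure (2.08 and 0.575 CPM) and the integrin gene Itgb6 after repetitive exposure (1.72 and 0.923 CPM). The fibrillin gene Fbn1, the membrane protease gene Mmp14 and Lrrc32, which encodes the latent TGF-β anchor GARP, were past the fold in both and are named after their values were seen, with log2 ratios of 2.15, 1.61 and 1.26 after single and 1.04, 1.21 and 1.00 after repetitive exposure. The fifth gene differed: Thbs1, encoding the activator thrombospondin 1, after single exposure (1.37), where it was -0.34 after repetitive exposure, and the integrin gene Itgb8 after repetitive exposure (1.40), where it was 0.36 after the single exposure.

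Of 5 other receptors and co-receptors, Eng, the endoglin co-receptor, was highest and Bambi, a decoy receptor, lowest in both experiments. Eng stood at 35.5 and 70.1 CPM (log2 ratio 0.96, 0.75 to 1.18) and at 24.5 and 50.1 CPM (1.01, 0.92 to 1.09), past the fold only after repetitive exposure, where 5.53% of genes were past it upward. Bambi had log2 ratios of -0.93 (-1.15 to -0.70) and -0.81 (-0.91 to -0.72). The 11 Smads and Smad regulators had medians of 0.19 and 0.01, with 1 of 11, Tgif1, past the fold after the single exposure, against 6.4% of genes, and 0 of 11 after repetitive exposure, against 5.53%. The corepressor gene Tgif1 was their highest in both experiments, with log2 ratios of 1.03 (0.67 to 1.40) and 0.65 (0.51 to 0.78), and the lowest was the ubiquitin ligase gene Smurf2 at -0.12 (-0.37 to 0.14) after single and the inhibitory Smad7 at -0.56 (-0.59 to -0.52) after repetitive exposure.

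Of 8 known TGF-β targets, 3 were past the fold upward in each experiment and 1 downward after the single exposure, beside the same shares of all genes. Their median log2 ratio was 0.34 after single and 0.16 after repetitive exposure, beside 0.06 and 0.09 for all genes compared. Fn1, encoding fibronectin, was highest after single exposure at 3.10 (3.05 to 3.15), and Col1a1 after repetitive exposure at 2.02 (2.01 to 2.04). Col1a1 is also a marker of the FB gate. Ldlrad4, which encodes a relative of Pmepa1, was the third in both, with 1.18 and 1.55. Junb was lowest in both, at -1.28 (-1.32 to -1.25) and -0.75 (-0.76 to -0.73). The other targets differed among themselves: Ccn2 had 0.06 and -0.52, and Smad7 0.08 and -0.56 after single and repetitive exposure, beside 0.97 and 1.17 for Pmepa1. Ldlrad4 and these 2 were named after their values were seen.

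**Figure D5:**
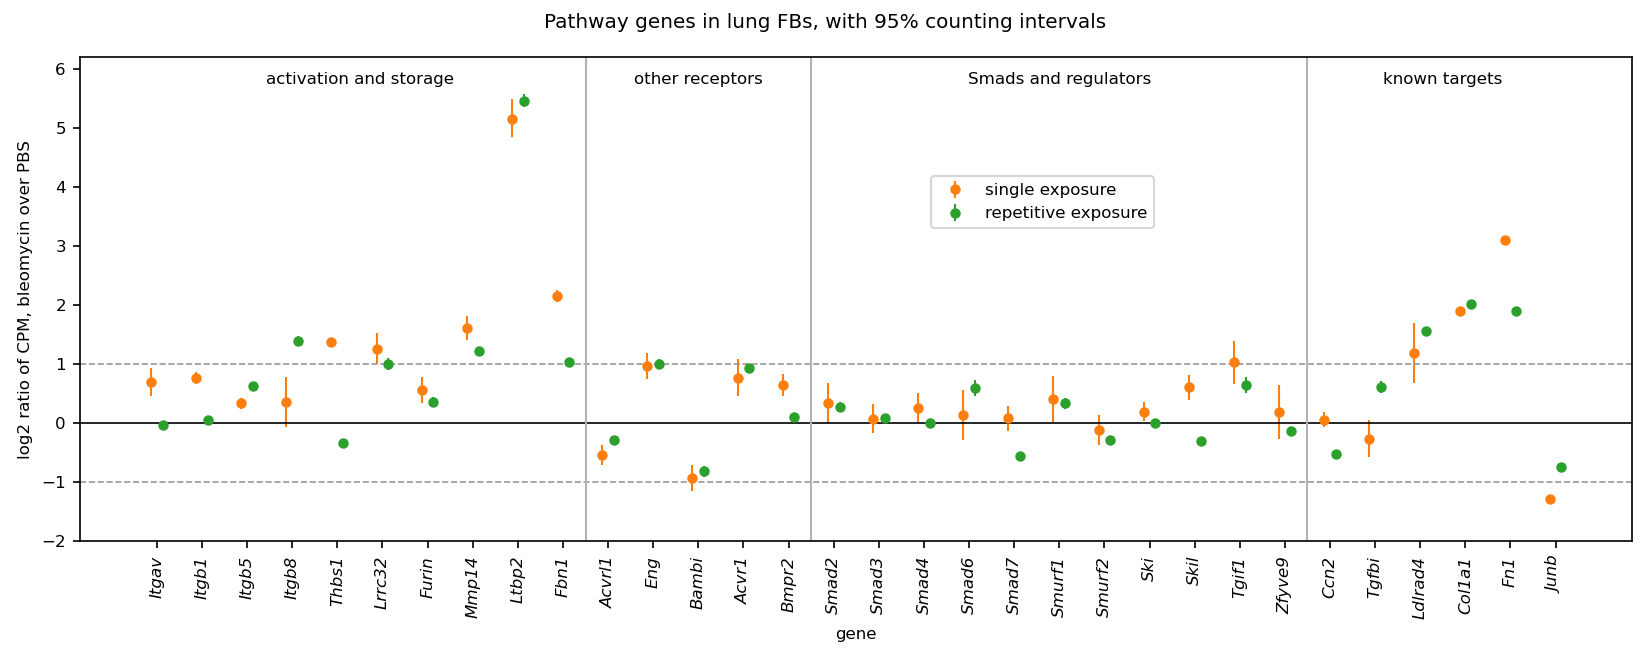
Log2 ratio of CPM of bleomycin over PBS in lung FBs (y axis) for the pathway genes that passed the filter in both experiments (x axis, grouped by list), in orange for the single and green for the repetitive exposure, with bars for 95% counting intervals and dashed lines at 1 in either direction. Ltbp2 stands above 5 in both, the Smads and regulators lie between -0.56 and 1.03, and Thbs1 is on opposite sides of 0. Smad7 and Skil belong to 2 lists and are drawn once.

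In organoid epithelial barcodes no gene of the 4 lists was past the fold, a count to be read against 0.152% of all genes in each direction. Known targets that passed the filter had a median log2 ratio of 0.45 with fibrogenic over normal FBs, beside 0.03 for all genes compared. The highest was Ccn2 at 167 and 256 CPM (0.61, 0.58 to 0.64) and the lowest Tgfbi, under the filter, at 3.29 and 3.14 CPM (-0.05, -0.26 to 0.16). The states differed. In PATS-like barcodes the targets' median was -0.16, beside -0.03 for all genes compared. No target was past the fold there, against 0.203% of genes higher and 0.193% lower. In AEC2-like barcodes the median was 0.44 and Col1a1 was past the fold at 18.0 and 38.3 CPM (1.05, 0.94 to 1.16), against 0.337% of genes higher and 0.126% lower. In AEC1-like barcodes the median was 0.30 and Fn1 was past the fold at 87.7 and 222 CPM (1.33, 1.21 to 1.45), against 0.785% and 0.496%. The 7 FB markers, Col1a1 among them, summed to 113 CPM with normal and 166 CPM with fibrogenic FBs in all epithelial barcodes and to 91.9 and 161 CPM in AEC2-like barcodes. The 5 FB genes read by no gate went the other way in all epithelial barcodes, at 41.2 and 27.0 CPM. The part of FB transcripts in these target ratios was not tested. Itgb3, an integrin gene, was the highest of the storage and activation list at 16.4 and 27.0 CPM (0.68, 0.58 to 0.78). In organoid FBs 2 of the 12 storage and activation genes that passed the filter (Itgb8 and Fbn2) and 1 of the 8 targets (Tgfbi) were past the fold downward, against 0.84% of genes, and none of either list was past it upward, against 0.334%. The targets' median was -0.09, with Ccn2 highest at 0.12 and Tgfbi lowest at -1.22, and Itgb8 was the lowest of the storage and activation list at -1.31 (-1.38 to -1.24).

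For each of the 10 genes, the gene most like it across 35 combinations of library and cell group of at least 50 barcodes was found by Pearson's r of log2(CPM + 1) over 13488 genes. Ltbp4 was most like Pcolce2 (r = 0.97), Tgfbr3 most like Abi3bp (0.97), Tgfb3 most like Plpp7 (0.96), Tgfbr2 most like Eln (0.94), Ltbp1 most like Arhgef40 (0.94), Ltbp3 most like Ppic (0.93) and Pmepa1 most like Fgd1 (0.91). Tgfb1 (Slc20a1, 0.86), Tgfb2 (Rab12, 0.86) and Tgfbr1 (Nln, 0.76) had no gene above 0.90. The combinations come from all 3 experiments, whose tables were made separately. Combinations from 1 library share its depth and chemistry, so these values describe the tables and carry no test.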

How the data were processed

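Single-cell RNA-seq was made from 6 libraries, each pooled from 3 mice, so each condition had 1 library and no replicate. The deposited values are counts: whole-number UMIs per gene and barcode that the authors made with Cell Ranger. The study's methods name the Chromium 3′ kit version 2 for the single-exposure libraries, and Cell Ranger 3.0.1, Seurat 3 and the GRCm38 genome with Gencode M17. The submitters' processing notes give the genome as mm10. No separate kit or annotation for the other 4 tables is given in the sources used here. They hold 32285 gene rows each, against 30830 and 30828 in the single-exposure pair, so gene models can differ between the tables.

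Barcodes with under 1000 UMIs or over 25% mitochondrial UMIs were removed (1.32% to 19.1% per library). A barcode joined a lineage when at least 3 of its markers were detected and their summed share was at least 0.05% of its UMIs, or, for FBs, 25% of the library's median among marker-bearing barcodes. Barcodes passing for more than 1 lineage (26 to 427 per library), which include doublets, were left out, and no doublet caller was run. FB and epithelial subsets were cut from the mean log level of fixed marker lists, at cut-offs set after the files had been seen, FBs going to the list furthest past its cut and epithelial barcodes to AEC1, then AEC2, then PATS, and barcodes within 0.25 of a cut count as near it. UMIs were summed per library and group and scaled to CPM, with exact Poisson intervals for levels and conditional exact binomial intervals for ratios, at 95%. Intervals and floors (3 UMIs) cover counting error only. No test was run. Total UMIs per library ran from 7201081 to 238618743, so a gene at 20 CPM rests on far fewer UMIs in the single-exposure pair.

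The 10 genes, the gene lists and the cell groups were chosen with earlier results of these data known. The genes named are the 10, the highest and lowest log2 ratio of each pathway list and the genes most alike in level. Other genes that passed the fold in a list, and Ccn2 and Smad7, were named after their values were seen. A gene of the known-target list is not reported here and is not counted in it. Alternatives changed the pseudocount, centring, gating, UMI minimum, mixed barcodes, averaging and the filter on low values. Python 3.11.15, numpy 2.4.6, scipy 1.17.1, pandas 2.3.3, scanpy 1.11.5 and matplotlib 3.10.9 were used, and the calculations were tested on simulated data.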

Additional observations from a re-analysis of the deposited data

Results flagged for a closer look

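Over 29 pairs of cell groups or experiments with at least 20 barcodes per library, the 10 genes were searched for log2 ratios of opposite sign with both counting intervals clear of 0, for genes that passed the filter with more than 3 UMIs in each library. Lineages were paired with each other, LipoFB-like barcodes, MatrixFB-like barcodes and FBs outside every gate with each other, and the 3 alveolar states with each other. All FBs and each of these 3 FB groups were also paired with themselves between the lung experiments. There were 16 such cases, and none of these differences was tested, because each side is 1 pair of libraries. The share of all genes with such opposite signs was not computed, so the number of cases cannot be read as particular to these genes.

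Between single and repetitive exposure, Ltbp1 in FBs had 0.33 and -0.42, a gap of 0.75, and Ltbp1 in LipoFB-like barcodes had 0.50 and -0.23, a gap of 0.73. Ltbp1 in FBs outside every gate had 0.54 and -0.30, a gap of 0.84, and Tgfb3 in MatrixFB-like barcodes had -0.997 and 0.40, a gap of -1.40. Within the repetitive pair, FBs and macrophages differed in sign for Tgfb1 (0.70 and -0.43, a gap of 1.13) and for Tgfbr1 (-0.26 and 0.45, a gap of -0.71), and FBs and endothelial barcodes for Ltbp1 (-0.42 and 1.07, a gap of -1.49). Within the organoid pair, FBs and epithelial barcodes differed in sign for Tgfb2 (-0.12 and 0.50, a gap of -0.62) and for Pmepa1 (-0.34 and 0.54, a gap of -0.88).

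Among the alveolar states, AEC1-like and AEC2-like barcodes differed in sign for Ltbp3 (-0.15 and 0.34, a gap of -0.49). AEC1-like and PATS-like barcodes did so for Tgfb2 (0.35 and -0.19, a gap of 0.54), for Tgfbr2 (-0.36 and 0.24, a gap of -0.60) and for Pmepa1 (0.36 and -0.22, a gap of 0.58). AEC2-like and PATS-like barcodes did so for Tgfbr1 (0.10 and -0.46, a gap of 0.56), for Ltbp3 (0.34 and -0.34, a gap of 0.68) and for Pmepa1 (0.83 and -0.22, a gap of 1.05). Barcodes past the PATS cut and also the AEC1 or AEC2 cut count here as AEC1-like or AEC2-like. Median depth of PATS-like barcodes was 38609.5 UMIs with normal and 17000 with fibrogenic FBs, and its part in these gaps was not tested.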

How the results depend on the processing

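In single-exposure FBs 3 of the 10 genes were past the fold, and the count ranged from 2 to 4 over the alternatives: Ltbp3 was no longer past it with a pseudocount of 10 CPM, after centring on the median gene, with Leiden clusters or with at least 2000 UMIs per barcode, and Pmepa1 was added when barcodes were weighted equally. Leaving out the MyoFB, smooth muscle, cycling and MEFB gates, an alternative chosen after seeing the data, took Tgfb1 to 0.67 and left Ltbp3 and Ltbp4. The count was 2 (Tgfb3 and Pmepa1) in repetitive-exposure FBs and 0 in both organoid groups under every alternative run. A pseudocount or the filter on low values cannot turn a sign. Under the other alternatives signs of the 10 log2 ratios held in 60 of 60 values in each lung comparison, in 42 of 50 in organoid FBs and in 41 of 50 in organoid epithelial barcodes, where the main values of the genes that changed sign lay between -0.23 and 0.07. In repetitive bleomycin 8 of the 10 genes were higher in FBs than in macrophages, also with at least 2000 UMIs per barcode and with mixed barcodes kept. Leiden clusters gave no value for macrophages there. The share of all genes higher in FBs than in macrophages was not computed, so this count is not a trait of the 10 genes. Leaving out a replicate could not be run with 1 library per condition. No paired analysis was possible because each condition has 1 library and no result comes from a test. Counting intervals depend on UMIs and cover no spread between barcodes. In groups of under 60 barcodes they can still be narrow, as for Pmepa1 in the 14 smooth muscle-like over LipoFB-like barcodes of single bleomycin (0.89 to 1.20). A narrow interval there does not make the level firm. Genes under 5 CPM rest on few UMIs in small groups and have wide intervals there.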
